A study of Mus musculus with 72 samples.

Results

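Normal-appearing lung was compared between mice taken 3 months after exposure to the tobacco nitrosamine NNK had ended and mice taken at baseline, before any exposure. All animals carried the Gprc5a-/- genotype, so both groups lacked this retinoic acid-induced receptor, known as a lung tumor suppressor. The baseline group held 10 animals of 8 weeks and the 3-month group 9 animals of 28 weeks, with 1 library of normal lung from each animal. The libraries were chosen by the time given in their titles, 19 of the 72 libraries of the study, and the other normal lungs came from 10 animals at end of exposure (16 weeks) and 10 at 7 months (44 weeks). Tumors had been profiled from 4 of the 9 animals at 3 months. The labels give no strain, dose or route. No unexposed animals of 28 weeks were analysed here, so NNK, the time since it and age cannot be told apart in any result. The animals of the groups also differed in genes other than sex-linked ones that stood at separate levels by animal, described further on, and a difference of line or litter cannot be told apart from time either.

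NNK is activated by cytochrome P450 enzymes in lung and liver to metabolites that alkylate DNA. Damaged DNA stabilises the transcription factor p53, which raises genes that stop the cell cycle, feed back on p53 itself or promote cell death. In lung, airway cells such as club cells carry much of this P450 activity, and alveolar macrophages and neutrophils respond to injured epithelium.

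Each library was made from 10 ng of RNA by amplifying 1 short amplicon per gene, so levels of different genes are not compared. Total counts ran from 12818033 to 21822522 over the 19 libraries, and 17269 to 18321 genes had at least 1 count. Levels are CPM, the share of a library's counts after scaling and differences are log2 fold changes, 3 months minus baseline. Gprc5a, the deleted gene, had at most 3 counts in a library and 0 in 8 of 19. The labelled tissue carried its defining markers: 5 alveolar type 2 markers summed to 13900 to 24300 CPM at baseline and 16300 to 28200 CPM at 3 months, and 3 club cell markers to 39400 to 77600 and 17700 to 102000 CPM. Some libraries stood apart in genes of heart and thymus, and the source of this RNA was not tested. Heart muscle myosin Myh6 was over 300 CPM in baseline replicates 1, 2 and 9 and 3-month replicate 6, and the thymus genes Dntt and Prss16 summed to 40.7, 37 and 60 CPM in baseline replicates 2, 4 and 5, against at most 6.35 CPM at 3 months. Baseline replicates 10, 6 and 8, at 20.9, 7.14 and 7.09 CPM, also lay above every 3-month lung. Fits without the lungs rich in thymus genes left out only replicates 2, 4 and 5, so part of this difference stayed in them. The animal names carry the letter F or M, in 5 and 5 animals at baseline and 5 and 4 at 3 months.

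Of 14907 genes tested, 257 were called at an edgeR adjusted p under 0.05, which is 1.72% of them, with a median log2 fold change of 0.01 over all genes. The 162 genes that rose were 1.09% of the genes tested and the 95 that fell were 0.637%. At least a 2-fold change was fitted for 113 of the rises and 49 of the falls. The genes that rose included p53 targets, secreted defence proteins, genes of lipid-laden macrophages and the liver and gut transcription factor Hnf4a. Genes that fell included enzymes of drug and aldehyde metabolism, sodium channel subunits, the matrix gene Smoc2 and 2 of 17 imprinted and juvenile growth genes. In 24 genes every 3-month lung lay above every baseline lung (0.161% of the genes tested), and all 24 were called. In 7 genes every 3-month lung lay below every baseline lung (0.047%), of which 5 were called.

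**Figure D1:**
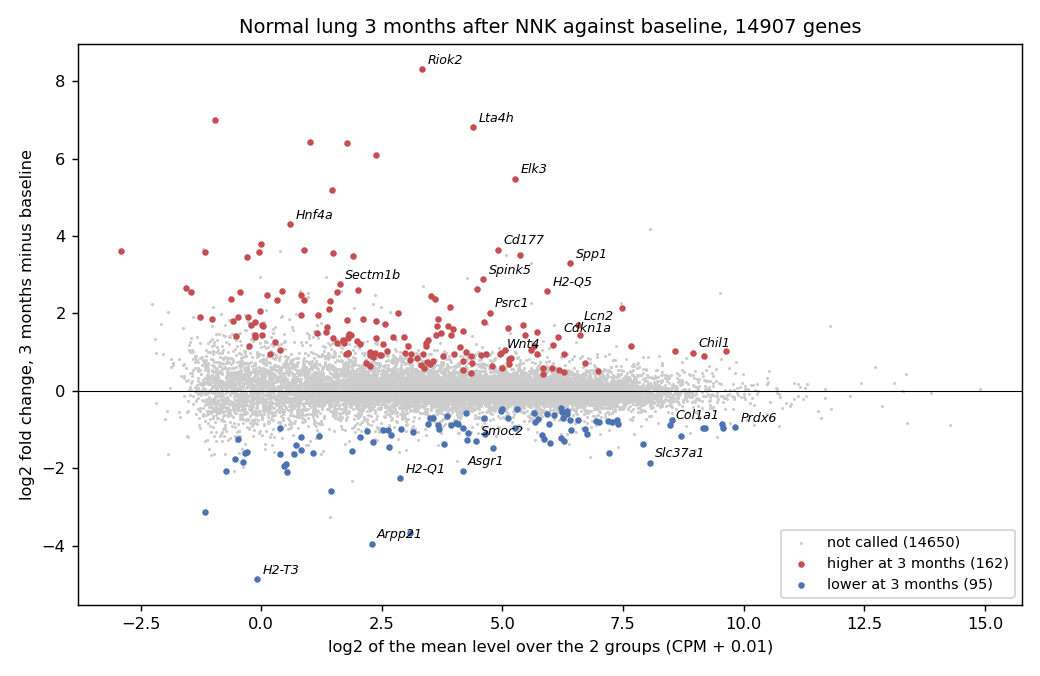
Log2 fold change of each of 14907 genes between 3 months and baseline against the log2 of its mean level over the groups. Red points are the 162 genes called higher, blue points the 95 called lower, and grey points were not called. Riok2, Lta4h and Elk3, at 8.31, 6.81 and 5.48, are genes with separate levels by animal.

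The count of calls depended on the lungs in the fit. It lay between 175 and 287 when each of the 19 lungs was left out in turn, with the lowest count without baseline replicate 5, which had the highest sum of thymus genes. Without baseline replicates 2, 4 and 5 it was 90. Across 26 fits (each lung left out, the lungs rich in heart or thymus genes or low in counts left out, other scalings, DESeq2 and limma-voom), 69 genes were called in the same direction in all, 52 up and 17 down. A further fit with the animal's level of H2-Aa as a term, described with the genes of chromosome 17, kept 31 of these 69, of which 29 rose. With the animal's level of Lta4h as a term 7 genes were called, but all 9 lungs at 3 months and 0 at baseline had the high level, so this term and the group cannot be told apart within the pair. Of the 6 called p53 targets, Cdkn1a (1.32, adjusted p = 0.0345) and Psrc1 (2.55, adjusted p = 0.0142) were called in that fit. Eda2r (1.32, adjusted p = 0.133), Gdf15 (1.86, 0.429), Bax (0.34, 0.652) and Phlda3 (0.45, 0.687) were not. The 31 genes included Cdkn1a, Psrc1, Eda2r, Phlda3, Lcn2, Lrg1, Gpnmb, Hnf4a, Sectm1b, Spink5, Wnt4 and Smoc2.

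The p53 targets are shown first by their promoters, since 6 of them rose. Windows of 250 bases before to 50 after the annotated start came from RefSeq (GRCm38.p6). Both strands were searched for the p53 half-site, without mismatches. It was found in 8.36% of all 32851 windows and in 7.19% of the 14175 windows of tested genes. Of the 6 called members, Cdkn1a and Bax held it and Psrc1, Eda2r, Phlda3 and Gdf15 did not. It stood in 26% of the 50 windows of tested p53 targets, in 7.75% of 142 windows of genes called up and in 12.3% of 81 windows of genes called down. The window at the upstream of 2 annotated starts is shown for Cdkn1a (chr17:29090729-29091028, plus strand), with 2 half-sites, and Psrc1 (chr3:108383554-108383853, plus strand), with 0, and the window of Bax (chr7:45466849-45467148, minus strand) holds 1. All are given 5′ to 3′ on the strand of the gene, with half-sites in capitals.
Cdkn1a: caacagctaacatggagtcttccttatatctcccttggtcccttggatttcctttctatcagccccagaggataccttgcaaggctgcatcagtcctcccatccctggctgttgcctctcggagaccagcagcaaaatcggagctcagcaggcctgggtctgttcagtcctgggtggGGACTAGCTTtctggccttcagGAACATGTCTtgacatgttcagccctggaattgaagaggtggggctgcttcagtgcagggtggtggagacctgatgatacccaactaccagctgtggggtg
Bax: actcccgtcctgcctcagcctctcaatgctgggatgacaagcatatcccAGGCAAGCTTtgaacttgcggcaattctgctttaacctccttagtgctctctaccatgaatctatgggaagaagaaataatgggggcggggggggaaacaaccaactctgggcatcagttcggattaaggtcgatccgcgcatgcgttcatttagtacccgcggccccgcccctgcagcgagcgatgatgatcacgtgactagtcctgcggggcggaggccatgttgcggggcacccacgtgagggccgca
Psrc1: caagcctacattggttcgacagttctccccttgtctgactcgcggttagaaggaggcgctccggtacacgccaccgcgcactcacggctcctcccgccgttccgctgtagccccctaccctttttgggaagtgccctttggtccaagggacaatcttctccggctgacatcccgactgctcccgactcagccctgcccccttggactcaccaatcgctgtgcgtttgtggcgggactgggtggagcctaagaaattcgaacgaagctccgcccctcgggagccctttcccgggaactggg

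Cdkn1a encodes p21, the inhibitor of cyclin-dependent kinases through which p53 halts the cell cycle. Its level ran from 22.1 to 53.2 CPM at baseline (median 41.4) and 83.2 to 128 CPM at 3 months (median 108). Every 3-month lung lay above every baseline lung, and the log2 fold change was 1.38 ± 0.15 (adjusted p = 3.54e-07). Psrc1 encodes a microtubule-binding protein of the spindle. It ran from 7.36 to 15.1 CPM at baseline (median 10.2) and 18.2 to 94 CPM at 3 months (median 35.5), again with no overlap, and rose by 2.02 ± 0.26 (adjusted p = 1.21e-05). Phlda3, an inhibitor of Akt signalling, ran from 24.9 to 47 CPM at baseline (median 36.8) and 55 to 88.3 CPM at 3 months (median 68.1) and rose by 0.95 ± 0.18 (adjusted p = 0.00193) without overlap. In the list of 30 tested targets for arrest, feedback and repair these were the 3 that rose, 0 fell and 27 did not pass, with a median log2 fold change of 0.27. These 3 were also called without the lungs rich in heart or thymus genes and with the H2-Aa term. Mdm2, which degrades p53, had a log2 fold change of 0.51 (adjusted p = 0.62), and Ccng1 one of 0.50 (0.18). Trp53, the gene of p53 itself, had medians of 70.8 and 71.1 CPM (log2 fold change -0.01 ± 0.12, adjusted p = 0.995).

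Among targets with roles in cell death or secretion, Eda2r, a receptor of the tumor necrosis factor family, ran from 2.73 to 8 CPM at baseline (median 4.91) and 8.22 to 16 CPM at 3 months (median 9.89). The groups did not overlap, and it rose by 1.16 ± 0.18 (adjusted p = 0.000118). Gdf15, a secreted stress cytokine, ran from 0.355 to 5.01 CPM at baseline (median 1.35) and 3.33 to 13 CPM at 3 months (median 7.57) and rose by 1.85 ± 0.41 (adjusted p = 0.00919), with some overlap between the groups. Its call was lost without the 3 baseline lungs rich in thymus genes (adjusted p = 0.0994). Bax, which permeabilises the outer mitochondrial membrane, ran from 39 to 62.8 CPM at baseline (median 48.9) and 46.1 to 89.9 CPM at 3 months (median 64.2), and its rise of 0.43 ± 0.12 (adjusted p = 0.0437) was lost when any of 11 single lungs was left out. Of 16 tested members of this list 3 rose, 0 fell and 13 did not pass, with a median of 0.20. With the lungs rich in heart genes left out 2 rose, and with those rich in thymus genes left out 1. Plcd4, a phospholipase C chosen after its values were seen, rose by 1.20 ± 0.18 (adjusted p = 0.000107).

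Of the 7 genes described, 5 stood higher at end of exposure than at 3 months in a direct test. At that time 2.5% of tested genes were called up and at 7 months 7.52%, with 5.31% called down at 7 months. Against the same baseline lungs, Cdkn1a had a log2 fold change of 2.14 (adjusted p = 5.21e-13) at end of exposure and 0.99 (2.68e-05) at 7 months, beside the 1.38 at 3 months. For Psrc1 the values were 2.83 (adjusted p = 1.07e-09) at end of exposure and 1.30 (0.00085) at 7 months, for Eda2r 2.03 (adjusted p = 1.57e-10) at end of exposure and 0.97 (0.000297) at 7 months and for Gdf15 4.56 (adjusted p = 1.39e-09) at end of exposure and 2.21 (0.000374) at 7 months. The list for arrest, feedback and repair had 14 members up at end of exposure and 7 at 7 months, when 2 fell. Tested directly, the 3-month lungs lay below the end-of-exposure lungs in Cdkn1a (-0.76, adjusted p = 0.00727), Eda2r (-0.87, 0.00828), Gdf15 (-2.71, 0.000236), Plcd4 (-1.18, 0.000243) and Bax (-0.55, 0.0123). The difference was not called for Psrc1 (-0.81, adjusted p = 0.126) or Phlda3 (-0.57, 0.122). Median Cdkn1a went from 41.4 CPM at baseline over 169 CPM at end of exposure to 108 CPM at 3 months and 81.4 CPM at 7 months.

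**Figure D2:**
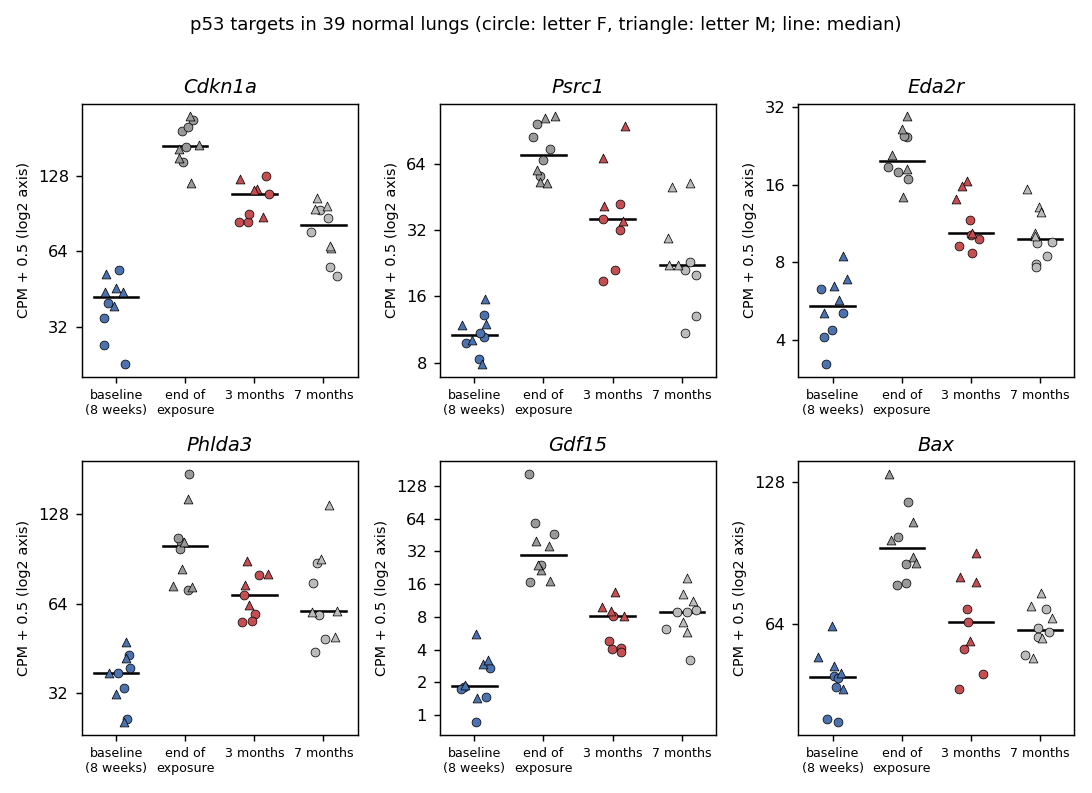
Level in CPM + 0.5 (log2 axis) of 6 p53 targets in each of 39 normal lungs by time, with baseline in blue, 3 months in red and the other times in grey. Circles are animals with the letter F, triangles those with M, and lines are medians. Cdkn1a, Psrc1, Eda2r and Phlda3 do not overlap between baseline and 3 months, and their highest medians are at end of exposure.

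Some secreted defence and acute phase genes rose. Lcn2 encodes lipocalin-2, an iron-scavenging protein of neutrophils and injured epithelium. It ran from 21.2 to 59.6 CPM at baseline (median 48) and 52.3 to 290 CPM at 3 months (median 144), overlapping in part, and rose by 1.69 ± 0.34 (adjusted p = 0.00282). Lrg1, a leucine-rich glycoprotein of the acute phase, ran from 2.34 to 12.1 CPM at baseline (median 9.09) and 10.9 to 32 CPM at 3 months (median 22.1) with some overlap, and rose by 1.43 ± 0.24 (adjusted p = 0.00039). Orm2, an acute phase orosomucoid, rose by 2.38 (adjusted p = 0.00154) from a median of 0.193 CPM. Lrg1 and Orm2 were the 2 called of 18 cytokine and acute phase genes, 0 of which fell (median 0.60, and 4 rose with the lungs rich in heart genes left out). The values of Lrg1 at the other times were 0.65 (adjusted p = 0.106) at end of exposure and 1.61 (1.64e-05) at 7 months, and those of Lcn2 1.14 (adjusted p = 0.0349) at end of exposure and 2.22 (3.31e-05) at 7 months.

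Cd177 is a surface glycoprotein of neutrophils. It ran from 3.2 to 6.5 CPM at baseline (median 4.5) and 18.2 to 204 CPM at 3 months (median 31.4), without overlap, and rose by 3.65 ± 0.64 (adjusted p = 0.000988). Together with Lcn2 it made 2 called of 16 neutrophil genes, with 0 down and a median of 0.67. The defining neutrophil genes S100a8, S100a9 and Cxcr2 had log2 fold changes of 0.65, 0.58 and 0.85, none called (adjusted p = 0.72, 0.76 and 0.48). These 3 markers summed to 8.37 to 46 CPM at baseline and 11.4 to 110 CPM at 3 months. In bulk tissue more cells of a type and more RNA per cell cannot be told apart.

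Spp1 encodes osteopontin, and Gpnmb a glycoprotein of lysosomes, both known from lipid-laden macrophages. Spp1 ran from 7.01 to 44.1 CPM at baseline (median 11.7) and 20.9 to 432 CPM at 3 months (median 99.9) and rose by 3.30 ± 0.61 (adjusted p = 0.00164). Gpnmb ran from 1.06 to 4.98 CPM at baseline (median 3.02) and 3.06 to 18.4 CPM at 3 months (median 10.3) and rose by 2.0 ± 0.34 (adjusted p = 0.0005). The groups overlapped in both. They were the 2 called of 21 lipid-laden macrophage genes, with 0 down and a median of 0.34, and DESeq2 called 4 up. With the H2-Aa term Gpnmb was called and Spp1 was not, at a log2 fold change of 3.23 (adjusted p = 0.0554). None of 14 alveolar macrophage genes was called (median 0.38, 4 under an unadjusted p of 0.05, 0 by DESeq2), nor any of 15 monocyte and interstitial macrophage genes (median 0.18, 3 and 0). At end of exposure Spp1 stood at a median of 19.2 CPM, not called against baseline (log2 fold change 0.61, adjusted p = 0.609). The 3-month lungs lay above the end-of-exposure lungs in Spp1 (2.69, adjusted p = 0.0165) and Gpnmb (1.30, 0.0395). At 7 months the medians were 67.1 and 12.2 CPM.

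The chitinase-like genes and their companions of type 2 responses included 4 called rises among 18 tested (median 0.74), with 0 falls. Chia1, acidic mammalian chitinase, ran from 197 to 528 CPM at baseline (median 423) and 535 to 1163 CPM at 3 months (median 731) without overlap and rose by 0.90 ± 0.22 (adjusted p = 0.0198). Chil1, a chitinase-like protein without enzyme activity, ran from 200 to 506 CPM at baseline (median 291) and 416 to 1182 CPM at 3 months (median 559) and rose by 0.99 ± 0.22 (adjusted p = 0.00806). Slc26a4, the anion exchanger pendrin, rose by 2.56 ± 0.49 (adjusted p = 0.00193) and kept its call without the lungs rich in heart or thymus genes and with the H2-Aa term. The list had 2 called without the lungs rich in heart genes and 1 without those rich in thymus genes. Chil4 stood at 80.3 CPM in 3-month replicate 9 and at 0 to 6.68 CPM in the other 3-month lungs. Its call (6.09, adjusted p = 0.0298) was lost when any of 5 single lungs was left out and by DESeq2. Chil4 has close paralogs, so its counts may be shared. Prg2, the major basic protein of eosinophils, rose by 2.36 ± 0.44 (adjusted p = 0.00164) from a median of 0.405 to 2.15 CPM, 1 of 8 genes of mast cells, basophils and eosinophils.

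Lymphoid genes gave few calls. Jchain, the joining chain of secreted antibodies, ran from 17.4 to 185 CPM at baseline (median 57.5) and 60 to 753 CPM at 3 months (median 218) and rose by 2.14 ± 0.47 (adjusted p = 0.00847), 1 of 14 plasma cell genes (median 0.29). It was not called without the lungs rich in thymus genes (2.18, adjusted p = 0.0547) or with the H2-Aa term (2.54, adjusted p = 0.057), with fold changes at least as large. None of 17 B cell genes was called by edgeR or DESeq2, with 6 under an unadjusted p of 0.05 and a median of 0.70. None of 13 cytotoxic and NK cell genes (median 0.76, 4 and 0) or of 20 T cell genes (median 0.10, 2 and 0) was called. Of 19 checkpoint and regulatory T cell genes Pdcd1lg2 was called by edgeR, with a rise of 2.47 (adjusted p = 0.0143), while DESeq2 called 4 up and 8 were under an unadjusted p of 0.05. The call of Pdcd1lg2 was lost without 3-month replicate 9, which held 10.7 CPM against at most 1.88 CPM in the other 3-month lungs. Cd274, the ligand of the programmed death receptor, had medians of 12.5 and 22 CPM (0.33 ± 0.31, adjusted p = 0.773). Oasl1, an interferon-induced antiviral gene, rose by 1.0 (adjusted p = 0.0236) as 1 of 25 interferon-stimulated genes. Its call was lost without the lungs rich in thymus genes and with the H2-Aa term.

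Hnf4a encodes a nuclear receptor of liver and gut epithelium. It was nearly absent at baseline, with 0 to 0.395 CPM and 24 counts in all 10 lungs together, and ran from 0.49 to 9.91 CPM at 3 months, with 393 counts in 9 lungs. The groups did not overlap, and the fitted log2 fold change was 4.30 ± 0.56 (adjusted p = 1.21e-05). Its values at the other times were 4.49 (adjusted p = 8.45e-07) at end of exposure and 4.42 (3.26e-06) at 7 months. It was 1 called of 11 gastrointestinal differentiation genes, whose median was 0.27. Kng1, the gene of kininogen, which liver secretes, ran from 0 to 0.183 CPM at baseline and from 0.242 to 1.62 CPM at 3 months, also without overlap (3.60, adjusted p = 0.00164). The liver markers Alb, Apoa1 and Ttr summed to 0.936 to 6.57 CPM at baseline and 0.435 to 5.83 CPM at 3 months. Cyp2a4, a P450 with near-identical relatives that may share its reads, rose by 3.78 ± 0.64 (adjusted p = 0.000587) from a median of 0.105 to 1.61 CPM without overlap.

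Some epithelial signal and barrier genes rose. Sectm1b encodes a secreted and membrane protein that binds a receptor of T cells. It ran from 0.201 to 1.09 CPM at baseline (median 0.93) and 1.47 to 12.9 CPM at 3 months (median 4.15), with no overlap, and rose by 2.75 ± 0.38 (adjusted p = 3.6e-05), while its median at end of exposure was 14.4 CPM. Spink5, an inhibitor of serine proteases of the skin barrier, ran from 3.42 to 10.3 CPM at baseline (median 5.36) and 5.72 to 107 CPM at 3 months (median 32.5) and rose by 2.89 ± 0.42 (adjusted p = 9.6e-05). It was 1 called of 9 basal, squamous and barrier genes (median -0.09). Wnt4, a secreted Wnt ligand, ran from 16 to 26 CPM at baseline (median 21.7) and 25 to 51.9 CPM at 3 months (median 42.6), overlapping through 3-month replicate 2 at 25 CPM, and rose by 0.97 ± 0.16 (adjusted p = 0.000364). Its medians at the other exposed times were 44.4 CPM at end of exposure and 42.9 CPM at 7 months. It was 1 called of 34 Wnt, Notch and Hedgehog genes, whose median was -0.01. Bmp4, a ligand of the bone morphogenetic family, rose by 0.83 ± 0.19 (adjusted p = 0.0115), and with Gdf15 it made 2 called of 28 TGF-beta and BMP genes (median 0.17). Neither of these 2 was called without the lungs rich in thymus genes.

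Of 23 EGF family and ERK output genes 2 rose, both ligands, and 0 fell (median 0.07). Areg, amphiregulin, a ligand of the EGF receptor, ran from 15 to 44.8 CPM at baseline (median 22.7) and 31 to 199 CPM at 3 months (median 42.1) and rose by 1.53 ± 0.34 (adjusted p = 0.00908). Nrg1, neuregulin, a ligand of the ErbB3 and ErbB4 receptors, ran from 13.4 to 18.1 CPM at baseline (median 16.6) and 15.2 to 55.9 CPM at 3 months (median 26.5) and rose by 0.93 ± 0.18 (adjusted p = 0.00206). With the lungs rich in heart genes left out neither was called (adjusted p = 0.185 and 0.0597). Mfsd2a, a lipid transporter of alveolar type 2 cells, rose by 2.36 ± 0.44 (adjusted p = 0.00145) from a median of 3.9 to 21.8 CPM. At 3 months it ran from 21.8 to 50.1 CPM in F and 4.51 to 13.3 CPM in M animals. At baseline it ran from 1.2 to 5.06 and 3.5 to 6.04 CPM, and the difference by letter was not called (adjusted p = 0.0921). Mfsd2a was the 1 called of 20 alveolar type 2 genes (median 0.23), and the surfactant gene Sftpc was not called (log2 fold change 0.21 ± 0.30, adjusted p = 0.856). Igfbp2, which binds insulin-like growth factors and is found in type 1 cells, rose by 1.19 ± 0.25 (adjusted p = 0.00699). Of 16 alveolar type 1 genes it was the 1 that rose, and Scnn1g, described with the sodium channel, the 1 that fell (median 0.38). Neither was called without the lungs rich in thymus genes or with the H2-Aa term. Vwf, von Willebrand factor of endothelium, rose by 1.17 (adjusted p = 0.0232), a call lost without 3-month replicate 2, 4 or 5 or baseline replicate 10. Other genes whose groups did not overlap were Ppp2r2c, a regulatory subunit of a protein phosphatase, which rose by 1.45 (adjusted p = 0.000107), the riboflavin transporter Slc52a3 (0.60, adjusted p = 0.00191), Tmem82 (1.02, adjusted p = 0.0153), Hgfac, the activator of hepatocyte growth factor (0.98, adjusted p = 0.00727), and the carboxypeptidase Cpn1 (0.76, adjusted p = 0.0234), which was lost without 3-month replicate 1. Slc52a3, Hgfac, Cpn1 and Kng1 were chosen after their values were seen.

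**Figure D3:**
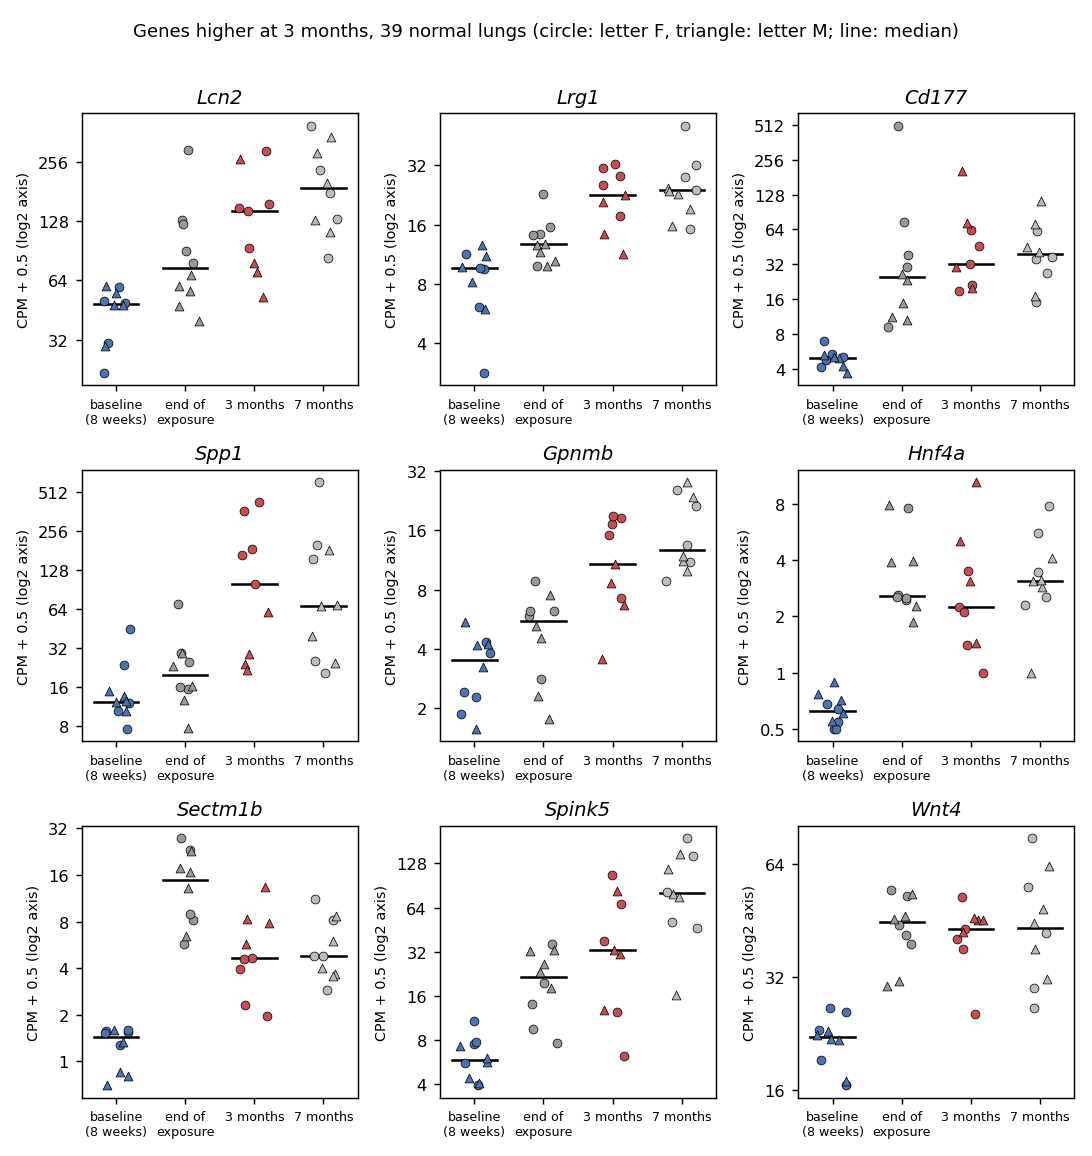
Level in CPM + 0.5 (log2 axis) of 9 genes that rose, in each of 39 normal lungs by time, with baseline in blue, 3 months in red and the other times in grey. Circles are animals with the letter F, triangles those with M, and lines are medians. Cd177, Hnf4a and Sectm1b do not overlap between baseline and 3 months, and in Spp1 the 3-month lungs with the letter F lie at 99.9 CPM or more and those with M at 59.7 CPM or less.

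The falls included enzymes of detoxification and metabolism. Dcxr, a reductase of sugars and carbonyl compounds, ran from 590 to 1315 CPM at baseline (median 707) and 199 to 587 CPM at 3 months (median 354), without overlap, and fell by 0.95 ± 0.21 on the log2 scale (adjusted p = 0.0108). Ces1e, a carboxylesterase, ran from 21 to 54.3 CPM at baseline (median 23.4) and 5.66 to 16.2 CPM at 3 months (median 11.3), also without overlap, with a log2 fold change of -1.28 ± 0.28 (adjusted p = 0.00919). Prdx6, a peroxiredoxin that reduces lipid peroxides, ran from 806 to 1921 CPM at baseline (median 1059) and 428 to 886 CPM at 3 months (median 581) and had a log2 fold change of -0.93 ± 0.20 (adjusted p = 0.00643). In baseline replicate 5, the lung with the highest sum of thymus genes, Dcxr stood at 1315 CPM and Ces1e at 54.3 CPM, the highest of the baseline lungs. Dcxr and Ces1e were not called without the 3 lungs rich in thymus genes (adjusted p = 0.074 and 0.0725), and Prdx6 was (0.037).

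Of 36 conjugation and aldehyde metabolism genes Gstm2, a glutathione transferase, and Aldh1a7, an aldehyde dehydrogenase, fell and the aldo-keto reductase Akr1b8 rose (median -0.32). The falls of Gstm2 (-0.87, adjusted p = 0.035) and Aldh1a7 (-0.97, adjusted p = 0.0401) were lost when any of 9 and 11 single lungs was left out. Akr1b8 ran from 34 to 89.7 CPM at baseline (median 47.6) and 57.1 to 150 CPM at 3 months (median 91.3) and rose by 0.94 ± 0.22 (adjusted p = 0.0147). Its call was lost with the lungs rich in heart genes left out. Of 22 Nrf2 and glutathione genes Prdx6 and Osgin1 fell and 0 rose (median -0.12), and Osgin1 was lost when any of 14 single lungs was left out.

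Some airway and ion transport genes fell. Scnn1g and Scnn1b encode subunits of the epithelial sodium channel, which clears fluid from the airspace, and Prss8 encodes a protease that activates it. Scnn1g ran from 44.6 to 87.2 CPM at baseline (median 64) and 21.1 to 49.7 CPM at 3 months (median 39.6) and had a log2 fold change of -0.79 ± 0.19 (adjusted p = 0.0196). Its call was lost without the lungs rich in heart genes, without those rich in thymus genes and with the H2-Aa term. Scnn1b and Prss8, chosen after their values were seen, changed by -0.97 (adjusted p = 0.0361) and -0.79 (adjusted p = 0.0235), and these calls were lost when any of 10 and 7 single lungs was left out. Of 20 club and secretory airway genes Lypd2 fell (-1.61, adjusted p = 0.0457, lost when any of 12 single lungs was left out) and 0 rose, with a median of -0.55, against 0.01 over all genes. This median was -0.28 without the lungs rich in heart genes and -0.22 without the 3-month lungs of animals with a profiled tumor. Scgb1a1, the main secretory protein of club cells, had medians of 26800 and 28800 CPM (log2 fold change 0.04 ± 0.40, adjusted p = 0.989). Trpm5, a cation channel, and Gnat3, a G protein subunit, both of the taste signalling of tuft cells, fell by 1.89 and 2.06 (adjusted p = 0.0291 and 0.0365), 2 called of 13 neuroendocrine, tuft and ionocyte genes (median -0.11). These calls were lost when any of 8 and 12 single lungs was left out. Rbp4, a carrier of retinol, had a log2 fold change of -0.77 ± 0.18 (adjusted p = 0.0137), and Asgr1, a subunit of the asialoglycoprotein receptor, one of -2.07 ± 0.48 (adjusted p = 0.0137), with 15.8 to 58.5 CPM at baseline and 1.85 to 16.8 CPM at 3 months. Neither was called without the lungs rich in thymus genes (adjusted p = 0.0936 for Asgr1) or with the H2-Aa term (0.202 for Asgr1). Asgr1 was also not called without the lungs rich in heart genes (adjusted p = 0.0805).

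Matrix and growth genes fell in small number. Smoc2, a secreted calcium-binding matrix protein, ran from 21.7 to 38.9 CPM at baseline (median 31.6) and 5.71 to 20.3 CPM at 3 months (median 11.6), without overlap, and had a log2 fold change of -1.29 ± 0.25 (adjusted p = 0.00197). Its medians were 12.6 CPM at end of exposure and 11.1 CPM at 7 months. Col1a1, a chain of type I collagen, ran from 267 to 656 CPM at baseline (median 462) and 148 to 330 CPM at 3 months (median 263) with a change of -0.88 (adjusted p = 0.0198), lost without 3-month replicate 3. It was 1 called of 21 fibroblast genes (median -0.17), and P4ha3, a collagen prolyl hydroxylase, 1 of 28 collagen and elastic matrix genes (median -0.05), lost when any of 9 single lungs was left out. Peg3, an imprinted gene expressed from the paternal copy, ran from 9.66 to 30.1 CPM at baseline (median 16.1) and 5.33 to 13.1 CPM at 3 months (median 8.61) and had a log2 fold change of -0.99 ± 0.21 (adjusted p = 0.00709). Igf2bp1, a fetal RNA-binding protein, had one of -1.64 ± 0.37 (adjusted p = 0.011). They were the 2 called of 17 imprinted and juvenile growth genes, 0 of which rose (median -0.29). With the lungs rich in heart genes left out Igf2bp1 alone was called. With those rich in thymus genes left out 2 of the list fell. Neither Peg3 nor Igf2bp1 was called with the H2-Aa term or without the 3-month lungs of animals with a profiled tumor. None of 29 proliferation genes was called by edgeR or DESeq2 (median -0.12, 1 under an unadjusted p of 0.05), and Mki67 had medians of 17.5 and 16.9 CPM. Cdkn2a, a cell cycle inhibitor that marks senescent cells, had medians of 1.26 and 1.81 CPM (0.70 ± 0.41, adjusted p = 0.546), and of 18 senescence-associated genes Plau, the urokinase plasminogen activator, rose (0.95, adjusted p = 0.0116). Plau was not called without the lungs rich in thymus genes or with the H2-Aa term.

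Dntt, Arpp21 and Prss16 are genes of developing T cells or of the thymus. Arpp21 ran from 0.296 to 32.4 CPM at baseline and 0.0606 to 2.72 CPM at 3 months with a log2 fold change of -3.95 (adjusted p = 0.00269), and Dntt from 0.0592 to 55.4 and 0.121 to 4.93 CPM, with one of -3.67 (adjusted p = 0.0174). Baseline replicates 2, 4 and 5 were set apart by Dntt and Prss16 themselves, so the fit without them is no test of these genes. Dntt was not called without baseline replicate 5 alone. Prss16, which was chosen after its values were seen, was lost without the same lung.

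**Figure D4:**
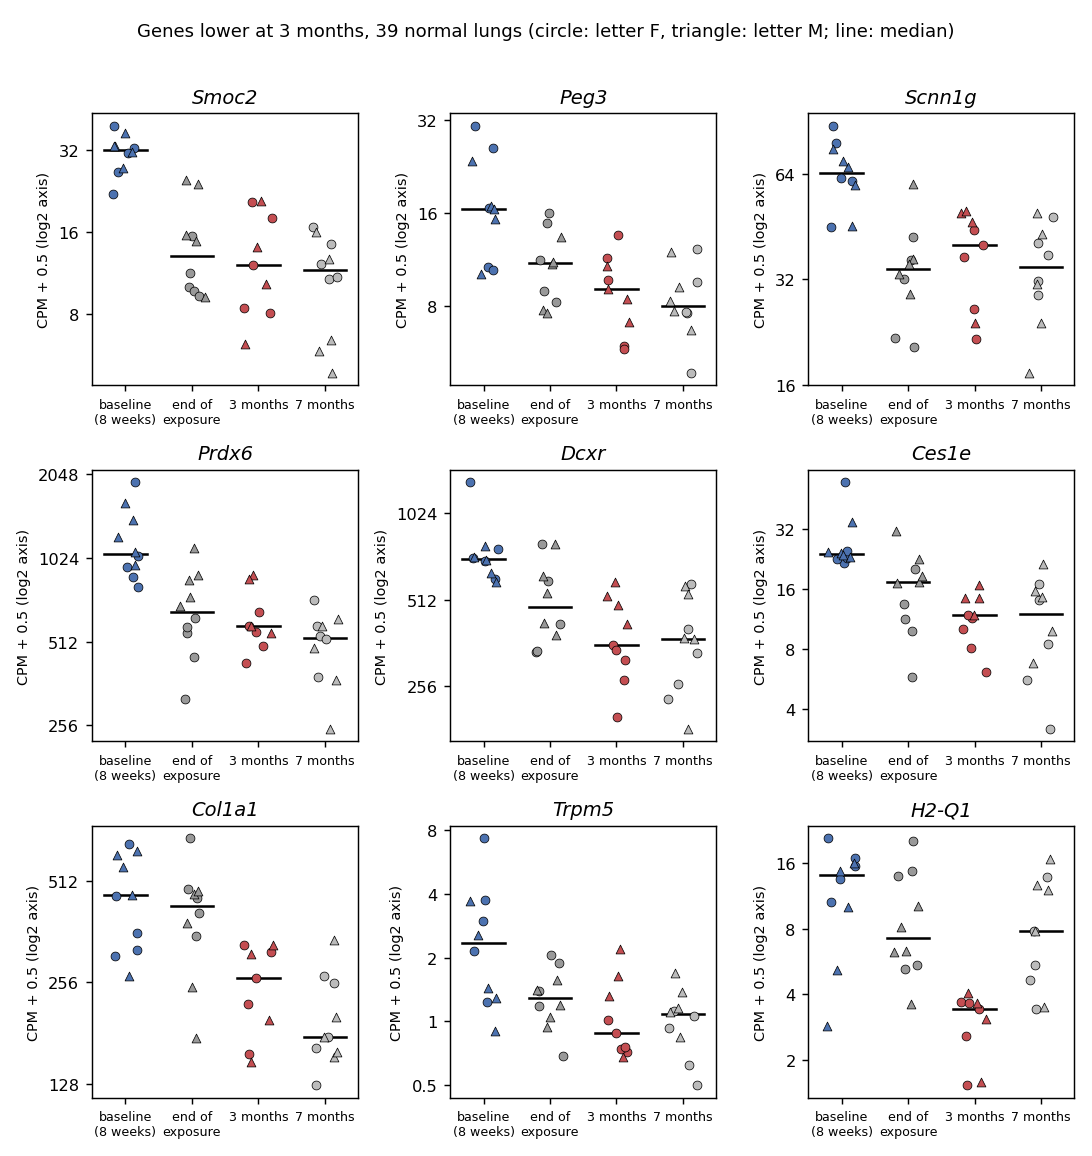
Level in CPM + 0.5 (log2 axis) of 9 genes that fell, in each of 39 normal lungs by time, with baseline in blue, 3 months in red and the other times in grey. Circles are animals with the letter F, triangles those with M, and lines are medians. Smoc2, Dcxr and Ces1e do not overlap between baseline and 3 months, and in H2-Q1 baseline replicate 9 lies among the 3-month lungs at 2.37 CPM.

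Genes of the major histocompatibility complex, which present peptides to T cells and lie on chromosome 17, changed in both directions. Of 22 listed class I genes 4 rose (H2-K1, H2-Q6, H2-Q7 and H2-Q10) and 2 fell (H2-Q1 and H2-T3), with a median of 0.37. Of 11 class II genes H2-DMb2, H2-Eb2 and H2-Ab1 rose and 0 fell (median 1.03), and the calls of H2-Eb2 and H2-Ab1 were lost when any of 13 and 15 single lungs was left out. H2-K1 ran from 363 to 1048 CPM at baseline (median 466) and 588 to 1736 CPM at 3 months (median 1108) and rose by 1.04 ± 0.24 (adjusted p = 0.0114). H2-Q6 ran from 20.6 to 194 CPM at baseline (median 35.9) and 49.5 to 219 CPM at 3 months (median 130) and rose by 1.45 ± 0.31 (adjusted p = 0.00643), while H2-Q1 ran from 2.37 to 20.3 CPM at baseline (median 13.6) and 1.03 to 3.55 CPM at 3 months (median 2.94) and had a log2 fold change of -2.26 ± 0.37 (adjusted p = 0.00039). Genes of these families are similar in sequence, so their counts may be shared between members. H2-Q5, an H2-Q gene outside the list, ran from 5.73 to 44.6 CPM at baseline and 39.2 to 183 CPM at 3 months. It rose by 2.59 ± 0.45 (adjusted p = 0.000827). Its call was kept without the lungs rich in thymus genes (2.51, adjusted p = 0.014) and lost with the H2-Aa term (1.78, adjusted p = 0.11). Without the lungs rich in thymus genes 0 of the 4 listed class I rises and 0 of the class II rises were called. Both class I falls were, and the log2 fold change of H2-K1 was 0.97 (adjusted p = 0.0939). With the H2-Aa term 0 rises of either class were called and H2-T3 still fell (-3.85, adjusted p = 0.0311), with 0.93 for H2-K1 (adjusted p = 0.145). H2-Aa is itself a class II gene and was high in 9 of 9 lungs at 3 months and 2 of 10 at baseline, so this term removes much of the group difference by construction.

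H2-Aa, a class II chain, stood at separate levels by animal. It was not called (log2 fold change 2.52 ± 1.63, adjusted p = 0.612), nor by DESeq2 (2.53, adjusted p = 0.443), but limma-voom called it (9.05, adjusted p = 0.014). It lay at 0.228 to 0.779 CPM in 8 baseline lungs, at 624 CPM in baseline replicate 7 and at 1550 CPM in baseline replicate 9, and at 559 to 1890 CPM in all 9 lungs at 3 months. At end of exposure 3 of 10 lungs, and at 7 months 6 of 10, had the high level of H2-Aa. H2-DMb2 differed in the same baseline lungs, at 15.9 CPM in replicate 7 and 26.6 CPM in replicate 9 against 1.72 to 3.01 CPM in the others. The genes that follow stood apart in replicate 9 and not in replicate 7. In baseline replicate 9 H2-Q6 stood at 194 CPM and H2-K1 at 1048 CPM. In the other baseline lungs they stood at no more than 66.5 and 606 CPM, both in replicate 7. Slc37a1, a sugar-phosphate exchanger of chromosome 17, stood at 59.5 CPM in this lung and at 257 to 780 CPM in the other baseline lungs, against 51.2 to 239 CPM at 3 months. Dnah8, a dynein heavy chain, stood at 10.2 CPM in it and at 24.9 to 57.8 CPM in the others. Baseline replicate 7 stood at 257 CPM of Slc37a1 and 32.7 CPM of Dnah8. Slc37a1 (-1.86, adjusted p = 0.00201) and Dnah8 (-1.47, adjusted p = 0.0137) were not called with the H2-Aa term (adjusted p = 0.331 and 0.488). At 3 months Slc37a1 stood at 51.2 to 66 CPM in animals with the letter F and 100 to 239 CPM in those with M. Dnah8 stood at 5.07 to 8.62 and 15.1 to 30.4 CPM. Their log2 fold changes were -3.14 and -2.80 in F and -0.83 and -0.39 in M animals. The differences by letter were not called (adjusted p = 0.0537 for each).

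In all, 50 genes with a mean of at least 1 CPM had a gap of at least 1.5 on the log2 scale in their sorted levels over the 39 lungs, with at least 3 lungs on each side. Among them were Xist, which silences an X chromosome in females, and the Y-linked Kdm5d, Eif2s3y, Uty and Ddx3y, which mark sex, and none of these 5 was called. Xist had its high level in 5 lungs at baseline and 5 at 3 months, and each Y-linked gene in 5 and 4. These are the numbers of animals with the letter F and with M in these groups, though the labels do not define the letters. Of the 50 genes 6 were called at 3 months. Elk3, a transcription factor, Lta4h, an enzyme of leukotriene synthesis, and Vezt, an adherens junction gene, lie near each other on chromosome 10. The high level of each was found in 0 of 10 baseline lungs, 1 of 10 at end of exposure, 9 of 9 at 3 months and 2 of 10 at 7 months. Lta4h ran from 0.057 to 0.649 CPM at baseline (median 0.383) and 32.8 to 64.9 CPM at 3 months (median 37.3), with a log2 fold change of 6.81 ± 1.20 (adjusted p = 0.00102). Elk3 ran from 1 to 2.46 CPM at baseline (median 1.72) and 45.1 to 111 CPM at 3 months (median 71.6), with one of 5.48 ± 0.81 (adjusted p = 0.000107). Riok2, a kinase of ribosome assembly, and 1600002H07Rik, both of chromosome 17, were high in 0 of 10 baseline lungs, 1 at end of exposure, 8 of 9 at 3 months and 5 of 10 at 7 months. H60b of chromosome 10, a ligand of a killer cell receptor, had its high level in 10, 8, 2 and 9 lungs, and its call was lost when any of 8 single lungs was left out. Riok2 was not detected in 3-month replicate 2. H60b and 1600002H07Rik were chosen after their values were seen. The part of these differences between animals in the other results was not tested beyond the fits with such a term. Cdkn1a, which also lies on chromosome 17, kept its call with the H2-Aa term (log2 fold change 1.33, adjusted p = 0.000242).

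By chromosome (RefSeq, GRCm38.p6), 4.31% of the 696 tested genes of chromosome 17 were called, 20 up and 10 down. The other autosomes lay between 0.571% on chromosome 13 and 2.36% on chromosome 19, and the X chromosome at 1.67%. The region of 5 Mb that held most called genes had 9 of 111 tested genes called, and the next region of chromosome 17 had 8 of 76. These 17 genes included H2-K1, H2-Ab1, H2-DMb2, H2-Eb2, H2-Q1, H2-Q5, H2-Q6, H2-Q7, H2-Q10, H2-T3, Slc37a1 and Dnah8. Against the same baseline, chromosome 17 had 4.31% of its genes called at end of exposure and 12.4% at 7 months, where 4.11% and 12.8% of all genes were called. Outside chromosomes 10 and 17 216 genes were called at 3 months, 136 up and 80 down.

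**Figure D5:**
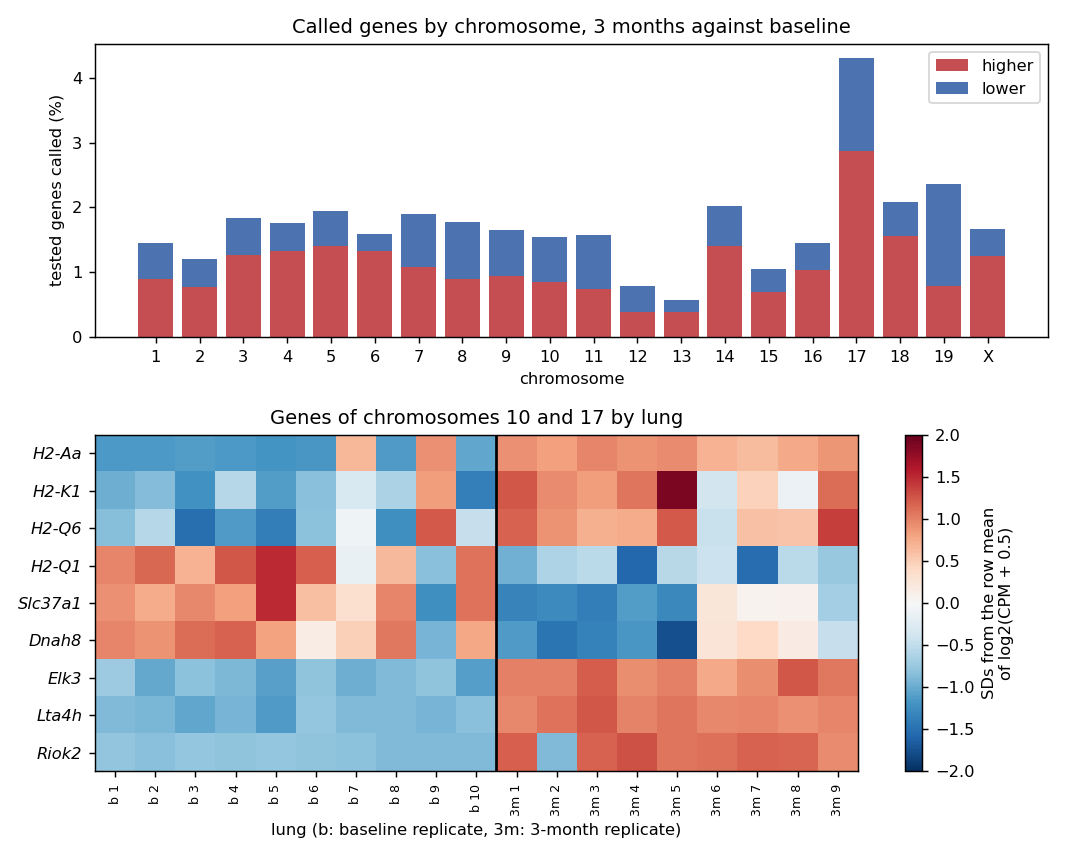
Upper panel, percent of tested genes called higher (red) and lower (blue) at 3 months on each chromosome, with 4.31% on chromosome 17. Lower panel, level of 9 genes of chromosomes 10 and 17 in the 10 baseline and 9 lungs at 3 months, as SDs from the row mean of log2(CPM + 0.5); baseline replicate 9 resembles the 3-month lungs in the genes from H2-Aa to Dnah8 and not in Elk3, Lta4h and Riok2.

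The 3-month difference was also set against the letter of the animal name. With all 39 lungs in the fit, 3 of 15444 genes (0.0194%) differed between F and M animals in their change from baseline, namely Etfdh, Ccdc8 and Tspan4, which were chosen after their values were seen. With the 19 lungs of the groups alone, 767 genes differed, and the cause of the larger count was not tested. Etfdh, a dehydrogenase of the mitochondrial electron transfer chain, had medians of 28.2 CPM at baseline and 6.7 CPM at 3 months in F animals and 17 and 22.8 CPM in M animals (difference of the log2 changes -2.42, adjusted p = 0.0137). Tspan4, a tetraspanin, had medians of 79 and 133 CPM in F animals and 90.8 and 35.2 CPM in M animals (1.86, adjusted p = 0.0273), and Ccdc8 24.3 and 46.8 against 38.7 and 21.7 CPM (1.70, 0.0273).

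Spp1 at 3 months ran from 99.9 to 432 CPM in the 5 F animals and from 20.9 to 59.7 CPM in the 4 M animals, and at baseline from 7.01 to 44.1 and 9.85 to 14.2 CPM. Its difference by letter was not called in the fit of 39 lungs (adjusted p = 0.205). Areg stood the other way round, at 31 to 42.1 CPM in F and 60.9 to 199 CPM in M animals at 3 months (adjusted p = 0.0991 for the difference by letter). H2-DMb2 stood at 46.5 to 73.7 CPM in F and 11.3 to 16.3 CPM in M animals at 3 months (adjusted p = 0.0537 for the difference). Cdkn1a had log2 fold changes of 1.49 in F and 1.30 in M animals (adjusted p = 0.762 for the difference). Of the club and secretory airway genes the median log2 fold change was -1.38 in F and 0.34 in M animals, of B cell genes 1.27 and -0.19, of MHC class II genes 1.77 and 0.23 and of cardiac muscle genes -1.76 and 0.89, without a test of these lists.

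Of the 9 animals at 3 months, 3 of the 5 F and 1 of the 4 M animals had a profiled tumor. Spp1 in their normal lungs ran from 59.7 to 363 CPM in the 4 animals with a profiled tumor and from 20.9 to 432 CPM in the 5 without, and the ranges overlapped. Lcn2 ran from 52.3 to 157 CPM with and 70.5 to 290 CPM without, and Cdkn1a from 83.2 to 108 CPM with and 89.9 to 128 CPM without. When the 4 lungs of animals with a profiled tumor were left out, 97 genes rose and 10 fell. All 3 called p53 targets for arrest and all 3 for cell death or secretion were called in that fit as well. Of the 94 called genes among those named by rule or added later, 49 were not, including Vwf, Igfbp2, Scnn1g, Col1a1, Lypd2 and the class II genes H2-DMb2, H2-Eb2 and H2-Ab1. This fit held 5 lungs at 3 months in place of 9 and left out 3 of the 5 F animals and 1 of the 4 M animals. The smaller group, the letter and the tumors cannot be told apart in these lost calls.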

How the data were processed

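Whole-number counts per gene were deposited in 1 table of 23930 genes, made by the authors from Ion AmpliSeq Transcriptome Mouse libraries, per the labels' protocols; neither labels nor table give an aligner, genome build or use of strand. Of 74 library columns 72 matched a sample by name and 2 were not used, and 27 gene names that had been turned into dates were restored. No pair of libraries of a group agreed within sampling noise. From these counts, genes were filtered by expression per group, scaled by TMM and fitted over all 39 normal lungs (35 residual degrees of freedom) with edgeR 4.0.16 in R 4.3.3, quasi-likelihood test, two-sided, with Benjamini-Hochberg adjustment over all tested genes. Each adjusted p in the text is from this fit unless another is named, and called means an adjusted p under 0.05. DESeq2 1.42.0, limma 3.58.1, other scalings, no filter, leaving out each lung and other choices of lungs were tried as alternatives. Fits with the side of H2-Aa or Lta4h as a term, and fits without the 3 lungs with most Dntt and Prss16, were chosen after seeing the data. Each library is 1 animal. The precision of a level depends on the counts of the gene itself and on the spread between animals. Amplified reads without molecular identifiers are not independent molecules. Values after ± are standard errors of the log2 fold change, derived from the F statistic of the test, and not the spread between lungs.

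The gene lists and named genes were chosen with earlier results of these data known. Named are a panel (Cdkn1a, Trp53, Lcn2, Spp1, Gpnmb, Sftpc, Scgb1a1, Mki67, Cd274, Cdkn2a, H2-Aa, Lta4h), among genes with a mean of 5 CPM or more the 12 called genes that rose most and the 12 that fell most, up to 4 called members of each list with the smallest p, and up to 10 called genes in each direction with the widest gap between the groups. Genes added outside this rule were chosen after their values were seen, as the text says at most of them. Ghrl and Zdbf2, given among the flagged results, were also added in this way. Mdm2, Ccng1 and the neutrophil markers S100a8, S100a9 and Cxcr2 are outside the rule too and were given beside the named genes. Promoter windows and chromosomes come from RefSeq (GRCm38.p6), matched by symbol. A result for 1 gene is not reported here.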

Additional observations from a re-analysis of the deposited data

Results flagged for a closer look

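In 208 pairs of a named gene and a group, 22 had a lung that stood apart from the others of its group by Dixon's criterion; chance flags about 1 in 20 groups. Baseline replicate 9 stood apart at 59.5 CPM of Slc37a1 (nearest other lung 257 CPM), 10.2 CPM of Dnah8 (24.9), 194 CPM of H2-Q6 (66.5) and 1050 CPM of H2-K1 (606). Baseline replicate 5 stood apart at 1610 CPM of Aldh1a7 (nearest other 861 CPM), 1310 CPM of Dcxr (784), 224 CPM of Rbp4 (134) and 54.3 CPM of Ces1e (34.1), and on the low side at 1.2 CPM of Mfsd2a (2.78) and 2.34 CPM of Lrg1 (5.45). 3-month replicate 2 stood apart on the low side at 0.0 CPM of Riok2 (15.2), 0.0 CPM of 1600002H07Rik (3.09) and 25.0 CPM of Wnt4 (37.5). 3-month replicate 6 stood apart at 49.5 CPM of H2-Q6 on the low side (113) and at 0.887 CPM of Gnat3 (0.303) and 54.6 CPM of Ghrl, the ghrelin gene (22.1), on the high side.

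Single flags were 10.7 CPM of Pdcd1lg2 in 3-month replicate 9 (nearest other 1.88 CPM), 12.9 CPM of Tmem82 in 3-month replicate 8 (8.91), 286 CPM of 1110059E24Rik in baseline replicate 3 (173) and 0.268 CPM of Vezt in baseline replicate 8 (0.114). In baseline replicate 6 Prg2 stood at 1.95 CPM (0.776) and, on the low side, Zdbf2 at 0.937 CPM (1.95).

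The genes Ccdc8, Tspan4 and Etfdh changed differently in F and M animals by a test of the difference itself. The difference of the log2 changes, F minus M, was 1.70 for Ccdc8 and 1.86 for Tspan4, and -2.42 for Etfdh.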

How the results depend on the processing

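The 257 called genes (162 up, 95 down) became 393 with DESeq2 (240 up, 153 down). They became 107 (97 up, 10 down) without the 3-month lungs of animals with a profiled tumor, 427 in F animals alone (222 down), 167 in M animals alone (30 down) and 90 (69 up, 21 down) without the 3 lungs with most Dntt and Prss16. With the side of H2-Aa as a term 44 were called (35 up, 9 down), and with that of Lta4h 7 (3 up, 4 down), where all 9 lungs at 3 months and no baseline lung are on the high side. Leaving out each lung in turn gave 175 to 287 genes, 126 to 170 up and 49 to 117 down, the lowest without baseline replicate 5 and the highest without 3-month replicate 9; falls were 61, 61, 59 and 51 without 3-month replicates 1, 3, 4 and 5, and 56 without baseline replicate 10. Other scalings, no filter, limma-voom, the 2 groups alone, the letter as a covariate and leaving out lungs rich in Myh6 or under 9000000 counts gave 198 to 309. Genes differing by letter went from 3 to 767 in a fit of the 2 groups alone.

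Genes that were not called changed sign as follows, in log2 fold change. Trp53 (-0.01) was 0.00096 with DESeq2 size factors, 0.03 with library totals, 2.1e-05 without a filter, 0.0011 with DESeq2, 0.0025 in the 2 groups alone, 0.04 in M animals, 0.16 with the H2-Aa term, 0.12 with the Lta4h term, 0.0067 without the thymus-rich lungs and -0.04 to 0.05 when each lung was left out. Scgb1a1 (0.04) was -0.22 with limma-voom, -0.12 with the letter, -0.05 without the Myh6-rich lungs, -0.66 in F animals, -0.03 without the thymus-rich lungs and -0.33 to 0.15 when each lung was left out. Mki67 was 0.06 in M animals and 0.14 without the thymus-rich lungs; in M animals Sftpc and Cd274 were -0.42 each and Cdkn2a -0.74. The 1 called gene that changed sign among the named genes, AI463170 (-1.44), was 0.05 with the Lta4h term. The causes were not tested. No paired analysis was possible because each lung of the 2 groups came from a different animal.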
